A study of Homo sapiens with 12 samples.

Results

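Distal always-open regions are stretches of chromatin that gave an ATAC-seq peak in every one of 12 libraries of MDA-MB-453 breast cancer cells and that lie away from the ends of protein-coding genes. On chromosomes 1 to 22 and X, peaks of any libraries that shared at least 1 bp were joined, which gave 166523 regions. Of these, 16630 had a peak in all 12 libraries, and in 9690 of the 16630 the strongest summit lay more than 1 kb from both ends of every protein-coding gene. These 9690 regions are described here, and the other 6940, called gene-end regions, serve for comparison. The regions were selected on the presence of a peak in each library and on the deposited −log10 p that sets the strongest summit, so openness in every library and distance over 1 kb are properties of the choice and not findings.

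Ectopic estrogen receptor alpha (ER), induced by doxycycline, came in 1 of 3 forms: Y537S, whose changed ligand-binding domain is known to be active with no hormone, K303R, changed in the hinge region, or wild type (WT). In each form, cells received doxycycline (Dox, 2 ug/mL) with 1 nM estradiol (E2), Dox alone, E2 alone, or neither, for 2 days, and 1 library was made per form and treatment. Each form was represented by 1 engineered line, so form and line cannot be told apart, and the labels name no independent cultures, which leaves p-values to measure the spread of these 12 libraries alone. ATAC-seq marks open chromatin by the insertions of a transposase. By tags in the peak names, taken here as runs, both WT libraries with Dox came from a run of their own, all Y537S libraries from another, and the K303R libraries from a further run with WT E2 and WT untreated. Dox and run therefore cannot be told apart in WT.

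Chromatin away from promoters opens mainly at enhancers, at boundary elements bound by CTCF and at promoters of non-coding genes. In luminal breast cells the pioneer factors FOXA1, GATA3 and AP-2 keep many such sites accessible, and ER binds largely at sites of this kind, through an estrogen response element built of half-sites or through other factors such as AP-1. MDA-MB-453 is a luminal line with apocrine features that is known for little ER of its own. Of 11 luminal and apocrine markers, 9 had a peak within 1 kb of a gene end in all 12 libraries, among them FOXA1, GATA3, SPDEF, ERBB3 and KRT8, while TFAP2B had one in 10. Of 5 basal or mesenchymal markers, 4 had none in any library (KRT5, KRT14, TP63 and VIM), and ZEB1 had one in 10. The blood markers PTPRC and CD3E had weak peaks in 4 libraries each, and SPI1 in 11.

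Some of the distal always-open regions sit on starts of long non-coding RNAs, for which RefSeq promoter windows (GRCh38.p14, from 250 bases before to 50 after the start) were at hand. In 301 of the 9690 the strongest summit fell inside such a window. Shown here on the strand of the RNA, 5′ to 3′, are the windows of the largest rise with Dox, the largest fall with Dox, the highest level and the smallest spread above the median level among those 301, with one chromosome left out. They are LOC100126584 inside TPD52L1 (chr6:125197768-125198067, minus strand), TCF4-AS1 inside TCF4 (chr18:55452283-55452582, plus), LOC124904058 near CDR2L (chr17:74982144-74982443, plus) and LOC105370821 inside ATOSA (chr15:52679355-52679654, plus). Capitals mark every match on either strand to 4 motifs. These are the ER half-site, spelled AGGTCA, which the longer response element pairs, and the AP-1 motif of FOS and JUN dimers, spelled TGANTCA. The others are the forkhead motif of FOXA1 and its relatives, spelled TGTTTAC, and the GATA factor motif, spelled AGATAA, and no match overlapped another.
LOC100126584: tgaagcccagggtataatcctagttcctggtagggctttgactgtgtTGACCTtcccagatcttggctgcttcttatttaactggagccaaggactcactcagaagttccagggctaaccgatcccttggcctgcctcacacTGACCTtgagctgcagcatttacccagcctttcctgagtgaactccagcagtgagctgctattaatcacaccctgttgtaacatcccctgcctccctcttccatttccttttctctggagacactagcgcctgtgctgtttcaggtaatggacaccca
TCF4-AS1: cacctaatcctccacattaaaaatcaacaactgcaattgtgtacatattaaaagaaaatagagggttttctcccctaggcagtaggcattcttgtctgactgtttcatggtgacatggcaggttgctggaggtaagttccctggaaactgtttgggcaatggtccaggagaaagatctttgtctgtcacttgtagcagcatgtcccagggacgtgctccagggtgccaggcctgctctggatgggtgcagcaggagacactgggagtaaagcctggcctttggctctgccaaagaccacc
LOC124904058: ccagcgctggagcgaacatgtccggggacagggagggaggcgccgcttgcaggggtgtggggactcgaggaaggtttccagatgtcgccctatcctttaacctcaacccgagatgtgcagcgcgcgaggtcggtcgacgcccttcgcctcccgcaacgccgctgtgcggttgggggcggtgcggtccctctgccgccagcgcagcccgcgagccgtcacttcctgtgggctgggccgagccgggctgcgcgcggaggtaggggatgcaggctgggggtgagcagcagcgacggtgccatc
LOC105370821: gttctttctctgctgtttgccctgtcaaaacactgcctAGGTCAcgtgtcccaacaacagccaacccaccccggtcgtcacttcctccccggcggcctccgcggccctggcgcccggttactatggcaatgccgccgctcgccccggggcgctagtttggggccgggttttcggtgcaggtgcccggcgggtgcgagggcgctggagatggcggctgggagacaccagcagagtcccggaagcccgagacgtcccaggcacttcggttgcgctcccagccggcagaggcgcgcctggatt
The LOC100126584 window held 2 half-sites, starting at bases 48 and 143, and the LOC105370821 window 1 at base 39. No match to the 4 motifs lay in the other 2 windows, which says only that these letters are not there. Among all 34961 promoter windows of the table, 13.8% held a half-site, 7.68% an AP-1, 3.42% a forkhead and 10.3% a GATA match. The 301 windows had a median GC share of 63.0%, against 58.7% in all windows. Among the 13 windows whose region was higher with Dox, 1 held a half-site, and 2 did among the 13 whose region was lower, with GC shares of 65.3 and 53.0%.

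Another set lay at microRNA genes: 50 of the 9690 (0.516%, exact 95% interval 0.383 to 0.680%) were within 1 kb of a microRNA gene end, against 0.272% (0.246 to 0.301%) of regions away from gene ends with a peak in 1 to 11 libraries. The share was 1.11% (0.877 to 1.38%) in gene-end regions open in all 12 and 0.414% (0.253 to 0.639%) in distal regions with a peak in 11, an interval that overlapped. The 50 included loci of microRNAs known from epithelial cells, miR-200c and miR-203a, which restrain ZEB1 and other mesenchymal or stem cell programmes, miR-375, abundant in luminal breast cells, and the hypoxia-induced miR-210. These 4 were chosen after their values were seen. Their mature 3p strands (RefSeq, GRCh38.p14) are shown with the seed, bases 2 to 8, in capitals, and no seed is shared.
hsa-miR-200c-3p: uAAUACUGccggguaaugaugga
hsa-miR-203a-3p: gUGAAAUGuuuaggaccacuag
hsa-miR-375-3p: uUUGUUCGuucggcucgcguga
hsa-miR-210-3p: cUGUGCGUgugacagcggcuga
The level of a region is its strongest fold enrichment in a library divided by that library's median over the 16630 regions. At MIR200C it was 1.12 to 1.79 (median 1.45) in the 6 Dox libraries and 0.875 to 1.28 (median 1.18) in the 6 without Dox, overlapping ranges (log2 shift 0.40, SE 0.16, limma adjusted p = 0.0911). At MIR375 it was 0.941 to 1.36 (median 1.08) with Dox and 0.813 to 1.34 (median 1.29) without. Of the 50 regions, 3 were higher with Dox (6.00%) and 2 lower (4.00%), beside 7.01 and 9.34% over all regions tested and 6.63 and 15.3% of the 9690, counts too small to compare. The 2 lay at MIR635 (log2 shift -1.0003, adjusted p = 0.000224) and MIR4420 (-0.66, adjusted p = 0.0276, limma). The 3 higher ones lay at MIR3935 (0.86), MIR4466 (0.64) and MIR4479 (0.44).

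Distal always-open regions were wide and often had several summits. Their median width was 981 bp, against 1464 bp in gene-end regions and 284 bp in regions away from gene ends with a peak in 1 to 11 libraries. They held a mean of 1.81 summits per library, against 2.78 and 1.05. Wider merged regions have more room for a peak from every library, so width moves with the rule. Of the 9690, 54.5% (exact 95% interval 53.5 to 55.5%) had the summit inside a protein-coding gene, close to the 52.8% of regions away from gene ends with a peak in 1 to 11 libraries. The median distance to a gene end was 17.3 kb, and 25.5% (24.7 to 26.4%) lay over 50 kb away, against 37.9% (37.7 to 38.2%) in the less widely open set.

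Ends of non-coding genes were more common among them than in less widely open distal regions, and less common than in gene-end regions. Of the 9690, 12.98% (12.3 to 13.7%) lay within 1 kb of a non-coding gene or pseudogene end, against 6.00% (5.88 to 6.13%) of the less widely open regions and 22.3% (21.3 to 23.3%) of gene-end regions. For long non-coding RNAs the shares were 9.36 and 3.95%, for tRNA genes 0.516 and 0.117%, and for snRNA genes, whose products build the spliceosome, 0.227 and 0.0151%. In gene-end regions the long non-coding RNA share was 19.9% and the tRNA share 0.447%. In distal regions with a peak in 11 libraries the tRNA share was 0.435% (0.269 to 0.664%), which overlapped that of the 9690 (0.383 to 0.680%). KCNMA1, a potassium channel gene, held 18 of the regions, GSE1 13, PRKCA, a protein kinase C gene, 11, and NAV1, ARSG and RAD51B 10 each, counts that are not adjusted for gene length (768 kb for KCNMA1 and 193 kb for ARSG). Chromosome 1 held 14.7% (13.97 to 15.4%) of the regions, against 10.8% of the less widely open ones.

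At the 1 kb limit, a region inside PLXNA3 (chromosome X) with its summit 1001 bp from a gene end and one 1004 bp from RAN (chromosome 12) were just inside. Regions at LAMB3 (1000 bp, chromosome 1) and PHF12 (998 bp, chromosome 17) were just outside. For presence in all libraries, the regions at SDK1 and LPIN1 rested on a K303R Dox peak with a −log10 q of 2.04. A region 4.25 kb from IER5 lacked only a K303R untreated peak while its weakest other peak reached a −log10 q of 19.3, and one inside WWC2 (17.1) lacked only a WT Dox+E2 peak. The weakest peak of the 9690 was most often in WT untreated (36.1%), K303R untreated (28.8%) or WT Dox+E2 (18.0%). In the K303R untreated library the median pileup at these regions was 24.9-fold over background, and in the other libraries it lay between 41.6-fold and 95.3-fold.

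The levels ranged widely between regions and less between libraries. Averaged over the 12 libraries on the log2 scale, the middle 90% of the 9690 lay between -0.85 and 0.91, around a median of -0.17. For a given region the highest library exceeded the lowest by a median of 2.62-fold (5th to 95th percentile 1.72 to 5.08), against 2.10-fold in gene-end regions. Of the 9690, 16.3% stayed under 2-fold over all libraries, against 39.9% of gene-end regions, and 44 spanned over 8-fold. The condition of a peak in every library limits how low a level can be, and so caps this spread. The lowest level found among the 9690 was 0.143 in Y537S E2 but 0.444 in WT untreated and 0.50 in K303R untreated.

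The region with the highest mean level lay on chromosome 3 (93470280 to 93470872, hg38), near the centromere and 402 kb from the nearest protein-coding gene, PROS1. Its levels were 51.8 in K303R untreated, 26.3 in WT Dox and 10.6 to 18.2 in the other 10 libraries. The next was inside FAM117A (chromosome 17, 49763192 to 49764875), with 5.71 to 9.32 (median 7.28) in the 6 Dox libraries and 5.25 to 6.09 (median 5.52) in the 6 without. The ranges overlapped, and the region was higher with Dox (log2 shift 0.40, SE 0.10, limma adjusted p = 0.00619). Others of the 10 highest, with mean levels of 4.5 to 6.15, lay inside KCTD2 (chromosome 17), 0.11 kb from a tRNA-Arg gene, at CDR2L (2 regions), which encodes a target of neuronal autoantibodies, and near MRPL58, a mitochondrial ribosome protein gene, all on chromosome 17. The remaining ones were near CROCC, 0.456 kb from the U1 snRNA gene RNU1-2, inside NAV1 and near CD46, a complement regulator gene, on chromosome 1, and inside TEDC1 on chromosome 14. None of these 8 passed the Dox threshold (limma). Of the 100 highest, 27 were on chromosome 17, which held 533 of the 9690, and 25 on chromosome 1, which held 1421. A stretch of chromosome 17 from 74919939 to 75160187 alone held 21, of which 8 were among the 100 highest.

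The steadiest regions of above-median level lay inside FAM210B, ATOSA, TOMM40L, which encodes a mitochondrial outer membrane protein, ST3GAL2, a sialyltransferase gene, and PKP1, a desmosome gene. At ATOSA (chromosome 15, 52677815 to 52679975), over the LOC105370821 window above, the level was 1.65 to 1.79 (median 1.69) with Dox and 1.5 to 1.97 (median 1.71) without, an SD of 0.11 on the log2 scale. At PKP1 (chromosome 1, 201308946 to 201310324) it was 2.17 to 2.83 (median 2.34) with Dox and 2.22 to 2.63 (median 2.47) without. These ranges overlapped, and SDs of all 5 ran from 0.09 to 0.12, against a median of 0.42 over the 9690.

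With Dox, distal always-open regions lost signal relative to gene-end regions. The log2 ratio of the median fold of the 9690 to that of gene-end regions was -0.56 and -0.49 in Y537S Dox+E2 and Dox, against -0.24 and -0.31 in Y537S E2 and untreated. In K303R it was -0.23 and -0.25 with Dox+E2 and Dox, against -0.18 and -0.12 with E2 and untreated. In WT it was -0.58 and -0.39 with Dox+E2 and Dox, against -0.14 and -0.15 with E2 and untreated. Within each form both Dox libraries lay below both libraries without Dox. The mean was -0.42 ± 0.15 with Dox and -0.19 ± 0.07 without (SD, 6 libraries each), a difference of -0.23 (exact permutation of Dox labels within forms, 216 arrangements, two-sided, p = 0.00926, the smallest these arrangements can give, 0.0185 adjusted over the Dox and E2 tests). For E2 the difference was -0.04 (exact permutation p = 0.713). Without WT, where Dox came with another run, the Dox difference was -0.17, with a smallest possible p of 0.0556. Median pileup over background at the 9690 was 41.6 to 83.4 with Dox and 24.9 to 95.3 without, overlapping ranges, and its part in the ratio was not tested.

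**Figure D1:**
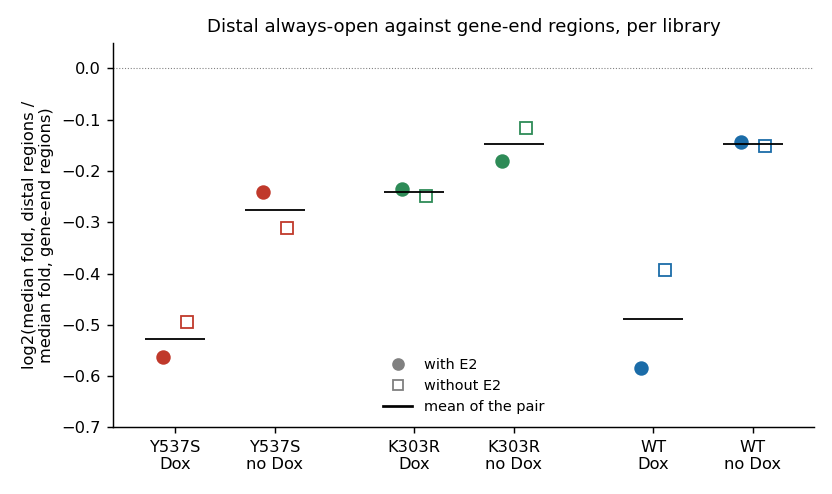
Log2 ratio of the median fold enrichment of the 9690 distal always-open regions to that of the 6940 gene-end regions, 1 point per library, by ER form and Dox (filled circles with E2, open squares without, bars the mean of each pair). Within each form both Dox points lie below both points without Dox, with the smallest gap in K303R.

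Single regions moved both ways with Dox. In a limma fit with ER form and E2 as further terms over all 16630 regions, 642 of the 9690 were higher with Dox (6.63%) and 1481 lower (15.3%) at an adjusted p under 0.05. The background over all regions tested was 7.01% higher and 9.34% lower, so the share of rises was near the background while that of falls was above it; in gene-end regions the shares were 7.55 and 1.05%. The median shift was -0.07 in the 9690 and 0.16 in gene-end regions, on the log2 scale. Of the 642 rises 593 had a positive shift in every form, and of the 1481 falls 1368 had a negative one in every form. The call came from the same 12 libraries with the forms pooled, so this agreement is partly built in. No share over all regions stands beside it. In 146 of the 9690 (1.51%, background 1.44%) all 6 Dox libraries exceeded all 6 others, and in 248 (2.56%, background 1.56%) all 6 lay below. The split depended on scaling. In an alternative, levels were set to the median over each library's whole peak list, which differs in length. The median shift of all regions then moved from 0.05 to 0.19. Of the 9690, 323 rose and 196 fell, beside 387 and 202 of all 16630. Without WT 288 rose and 641 fell, and without Y537S 157 and 426; leaving out Y537S Dox+E2 gave 416 rises and leaving out Y537S E2 gave 959 falls.

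**Figure D2:**
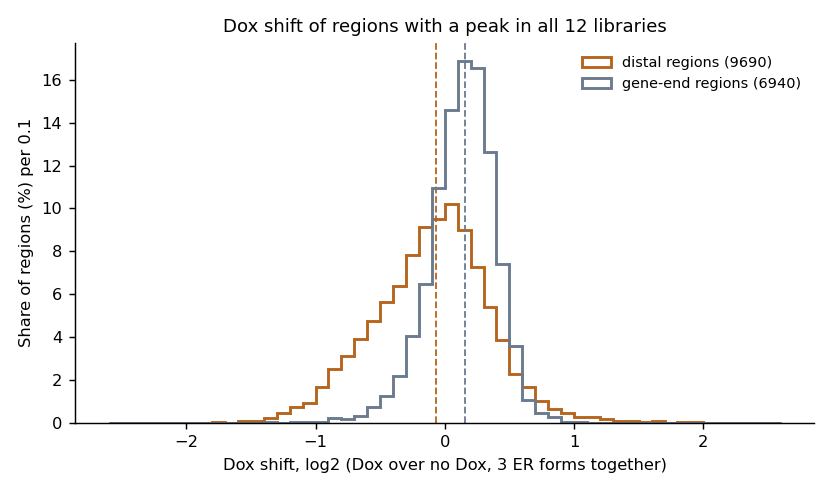
Share of regions by Dox shift (log2, Dox over no Dox, all forms together) for the 9690 distal always-open and the 6940 gene-end regions, with dashed lines at the medians. The distal regions reach further to the left, and their median is -0.07, against 0.16 in gene-end regions.

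The largest rise lay inside QSOX1, the gene of an enzyme that forms disulfide bonds in secreted proteins (chromosome 1, 180166442 to 180168591, 13.3 kb from a gene end). Its level was 1.76 to 3.56 (median 3.16) in the 6 Dox libraries and 0.257 to 0.778 (median 0.510) in the 6 without, with no overlap. The shift was 2.55 (SE 0.21, limma adjusted p = 2.65e-09), with 3.51 in Y537S, 2.04 in K303R and 2.09 in WT. Summit pileups were 87 and 88 in Y537S Dox and Dox+E2, against 11 and 8 untreated and with E2. In K303R they were 29 and 43, against 6 and 6, and in WT 60 and 40, against 6 and 13.

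Next came the region inside TPD52L1, an estrogen-regulated gene of the tumour protein D52 family (chromosome 6, 125197698 to 125198759), which covers the LOC100126584 window with its 2 half-sites. Its level was 1.61 to 2.92 (median 1.86) with Dox and 0.200 to 0.667 (median 0.475) without. The groups did not overlap, and the shift was 2.32 (SE 0.24, limma adjusted p = 3.18e-07), with 3.53 in Y537S, 1.52 in K303R and 1.92 in WT. A region 5.22 kb from S100A10, which encodes the partner of annexin A2 (chromosome 1, 151998524 to 151999393), had 1.21 to 2.52 (median 1.65) with Dox and 0.219 to 0.667 (median 0.390) without. It too showed no overlap, with a shift of 2.11 (SE 0.24, limma adjusted p = 1.70e-06).

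The other 7 of the 10 largest rises had shifts of 1.68 to 1.98. They lay inside PITPNC1, a phosphatidylinositol transfer protein gene, and CAPN9, a calpain gene, and near MYEOV in 11q13, TOB2, an antiproliferative gene, LACC1, RAB4A, which encodes a GTPase of endosome recycling, and CFAP418, a cilium gene. At MYEOV (chromosome 11, 69301443 to 69302720) the level was 1.35 to 3.16 (median 2.55) with Dox and 0.313 to 0.875 (median 0.693) without, with no overlap. At PITPNC1 (chromosome 17, 67411037 to 67412487) it was 1.06 to 4.20 (median 2.38) with Dox and 0.25 to 1.08 (median 0.733) without, and the ranges overlapped. In all 10 the Y537S shift was the largest of the forms, and at PITPNC1, CAPN9 and RAB4A the K303R shift was 0.30 to 0.47. The lowest level that a listed peak reached differed between libraries. It was 0.156 in Y537S untreated and 0.143 in Y537S E2. In WT it was 0.444 untreated and 0.25 with E2, and in K303R 0.50 untreated and 0.31 with E2. A rise has more room above a lower floor, and the part of this in the order of the forms was not tested. RAB4A missed the threshold without Y537S (shift 0.83, limma adjusted p = 0.066). The other 9 kept their call in each alternative run that held them. A −log10 q of at least 5 in all libraries left 1 of the 10 rises. A level above the median left 3, and the summit nearest to the strongest left 6.

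The largest fall lay 7.94 kb from SP6, a transcription factor gene of the SP family (chromosome 17, 47883364 to 47885635). Its level was 0.320 to 0.647 (median 0.379) in the 6 Dox libraries and 1.25 to 2.19 (median 1.64) in the 6 without, with no overlap. The shift was -1.94 (SE 0.19, limma adjusted p = 2.32e-07), with -2.34 in Y537S, -1.53 in K303R and -1.96 in WT. A region 51.7 kb from NEK3, a kinase gene (chromosome 13, 52210883 to 52211974), had 0.278 to 1.35 (median 0.506) with Dox and 1.41 to 2.40 (median 1.78) without. Again no library overlapped, and the shift was -1.76 (SE 0.26, limma adjusted p = 2.62e-05), but only -0.54 in K303R.

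The other 8 of the 10 largest falls had shifts of -1.73 to -1.51. Among them were regions near SULF1, a heparan sulfate sulfatase gene, ABHD11 and SOX11, a transcription factor gene, and inside SLC16A5, a monocarboxylate transporter gene, PITPNC1, CRIM1, which encodes a membrane protein that binds bone morphogenetic proteins, and NXPH3. At SLC16A5 (chromosome 17, 75092336 to 75093722) the level was 0.280 to 0.944 (median 0.606) with Dox and 1.31 to 2.17 (median 1.86) without, and the shift was similar in the 3 forms (-1.87 in Y537S, -1.44 in K303R and -1.42 in WT). PITPNC1 thus held one of the largest falls (67614582 to 67615728, 0.357 to 0.833 with Dox and 1.13 to 1.94 without) as well as one of the largest rises. Of its 9 distal always-open regions 3 rose and 2 fell. All 10 falls kept their call in each alternative run that held them. A −log10 q of at least 5 in all libraries left 2 of the 10 falls. A level above the median left 6, and so did the summit nearest to the strongest.

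**Figure D3:**
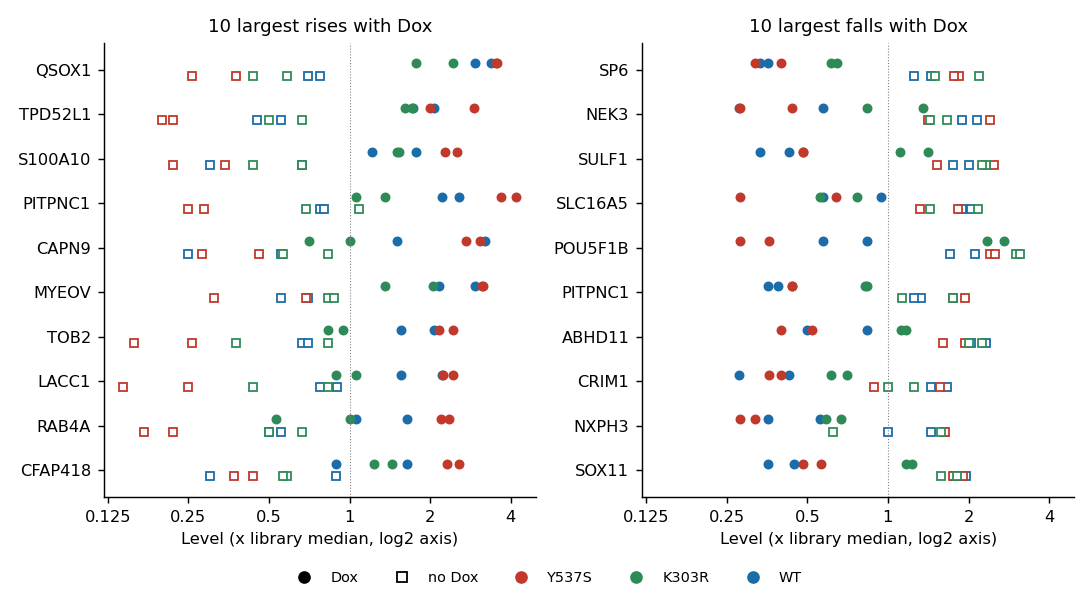
Levels (fold enrichment over the library median, log2 axis) of the 10 largest rises and 10 largest falls with Dox, 1 row per region named by its gene, with 6 Dox libraries (filled circles) and 6 without (open squares), coloured by ER form. The Dox points and the others do not overlap at the rises of QSOX1, TPD52L1, S100A10 and MYEOV. Nor do they at the falls of SP6, NEK3, SULF1, SLC16A5, PITPNC1, ABHD11, CRIM1 and SOX11.

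Falls were more frequent far from genes. Of the 2192 regions 1 to 5 kb from a gene end, 7.85% rose and 8.30% fell; at 5 to 20 kb the shares were 6.66 and 13.4%, at 20 to 50 kb 5.69 and 16.7%, and at over 50 kb (2474 regions) 6.27 and 22.6%. The median shift was 0.03, -0.05, -0.11 and -0.19 in these 4 bins. By form the outermost bins had medians of -0.22 and 0.10 in Y537S, -0.10 and -0.05 in K303R, and -0.23 and 0.03 in WT, the farthest bin first. The log2 ratio of the median fold at over 50 kb to that at 1 to 5 kb averaged -0.25 ± 0.18 with Dox and -0.02 ± 0.04 without (SD, 6 libraries each), a difference of -0.22 (exact permutation within forms, two-sided, p = 0.0278, 0.0556 adjusted over Dox and E2, which misses the threshold). This ratio was chosen after seeing the data; its values in K303R were -0.09 and 0 with Dox, against 0 and 0 without, and leaving out WT untreated, WT E2 or K303R Dox+E2 gave -0.22, -0.22 and -0.21 with an exact permutation p of 0.0556 each.

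**Figure D4:**
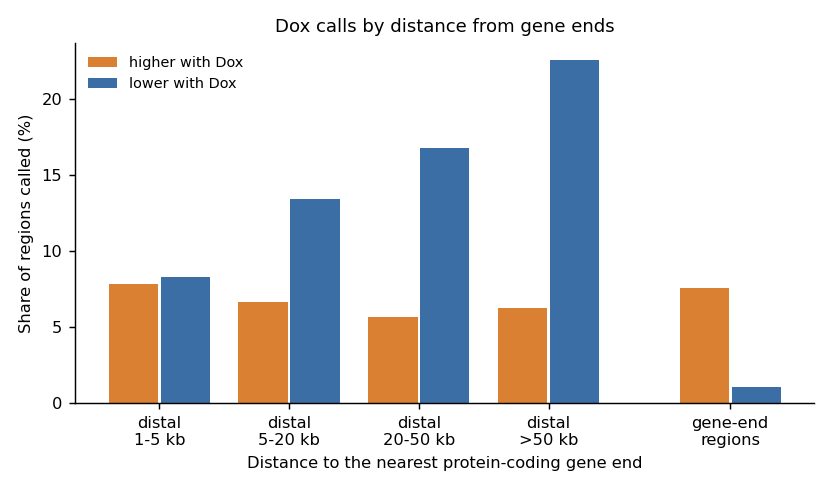
Share of regions called higher (orange) or lower (blue) with Dox by distance to the nearest protein-coding gene end, with gene-end regions at the right. The lower share climbs with distance to 22.6% at over 50 kb, against 1.05% in gene-end regions, while the higher share stays between 5.69 and 7.85%.

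Regions at other RNA genes were counted separately. Over all regions tested 7.01% were higher and 9.34% lower with Dox, and among the 9690 the shares were 6.63 and 15.3%. Of the 907 within 1 kb of a long non-coding RNA end, 6.73% rose and 7.17% fell, with a median shift of 0.06. Of 50 at tRNA genes 1 rose and 1 fell, and of 22 at snRNA genes 1 fell, with median SDs of 0.34 and 0.31 over the libraries. Of 16 at snoRNA genes 1 rose and 2 fell, with a median SD of 0.49, and of 134 at pseudogene ends 5.97% rose and 14.9% fell. The median SD of all 9690 was 0.42. At the TCF4-AS1 start, within the gene of a transcription factor of the E-protein class, the level was 0.240 to 0.882 (median 0.394) with Dox and 0.70 to 1.37 (median 1.0) without (shift -1.19, SE 0.24, limma adjusted p = 0.00105; -2.17 in Y537S, -0.26 in K303R and -1.15 in WT). At LOC124904058 it was 3.88 to 5.88 (median 4.86) with Dox and 3.89 to 5.59 (median 4.85) without, overlapping ranges. There were 1044 distal always-open regions within 25 kb of a region with a peak in all 6 Dox libraries and none of the others. Of these 11.8% rose and 12.3% fell, and of the other 8646, 6.00% rose and 15.6% fell. The neighbours were chosen by the same Dox labels in the same libraries, so these shares are not independent of that choice.

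Near listed genes (within 50 kb of the gene), counts were small. They stand beside 7.01% higher and 9.34% lower over all regions tested, and 6.63 and 15.3% of the 9690. Of 56 regions near 29 of 40 estrogen response genes, 7 rose (12.5%) and 6 fell (10.7%), with a median shift of 0.01. Rises lay near TPD52L1 (2 regions), AREG, which encodes an EGF receptor ligand, CTSD, a lysosomal protease gene, CELSR2, FHL2 and SLC9A3R1, and falls near RET, a receptor kinase gene, KCNK5, PRSS23, XBP1 (2 regions) and the trefoil factor cluster of TFF1 and TFF3, whose single region 8.20 kb from TFF2 also counts for TMPRSS3. That region had 0.786 to 1.28 (median 1.0) with Dox and 1.25 to 1.80 (median 1.39) without, ranges that overlapped little (shift -0.55, SE 0.16, limma adjusted p = 0.0185). Of 69 regions near luminal and apocrine genes, 3 rose (4.35%) and 12 fell (17.4%), shares near those of all 9690. The strongest region inside ERBB2, the receptor gene known to be amplified in this line (chromosome 17, 39699506 to 39704396), had 1.64 to 3.56 (median 2.38) with Dox and 3.58 to 4.56 (median 3.93) without. Its shift was -0.71 (SE 0.14, limma adjusted p = 0.00111), with -1.16 in Y537S, -0.20 in K303R and -0.76 in WT. The ranges nearly touched, at 3.56 in WT Dox and 3.58 in K303R untreated, where 1 pileup step is 0.056 and 0.083. Of all 7 regions near ERBB2, 0 rose and 2 fell, with a median shift of -0.08. The strongest inside SPDEF, a luminal transcription factor gene, had 0.200 to 0.765 (median 0.472) with Dox and 0.594 to 1.22 (median 0.886) without (shift -1.04, limma adjusted p = 0.00173).

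The strongest regions near ESR1, FOXA1, GATA3, CCND1, XBP1, FOS, JUN and CTCF did not pass the threshold with Dox, with shifts of 0.01 (FOXA1, a region inside TTC6) to 0.41 (CTCF, a region inside RIPOR1). The region inside ESR1, the gene of the receptor itself, had 1.04 to 1.78 (median 1.5) with Dox and 0.844 to 2.06 (median 1.4) without, overlapping ranges. Within 50 kb of KRT8 the strongest was near KRT78 and fell (-0.72, limma adjusted p = 0.0193), and within 50 kb of GREB1 it lay inside LPIN1 (-0.37, adjusted p = 0.238). For the other lists the background is the same, 7.01% higher and 9.34% lower, and nothing is read from counts this small. Of 54 regions near immediate early genes 1 rose and 4 fell, of 28 near stress response genes 4 rose and 2 fell, and of 26 near housekeeping genes 1 rose and none fell. Of 13 near basal or mesenchymal genes 2 rose and 2 fell, and of 7 near blood genes 1 rose.

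By form, the Dox shift was widest in Y537S. There 753 of the 9690 rose (7.77%, background 5.84%) and 1506 fell (15.5%, background 9.68%). In K303R 5 rose and 6 fell (backgrounds 0.0421 and 0.0361%), and in WT 317 rose (3.27%, background 3.79%) and 689 fell (7.11%, background 4.31%). The split depended on the scaling: with the median of each library's whole peak list, 281 rose and 1626 fell in Y537S, 1312 rose and 1 fell in K303R, and 44 rose and 188 fell in WT. Over all 16630 regions the counts were 302 and 1745 in Y537S, 2955 and 1 in K303R, and 51 and 194 in WT. The 2955 rises in K303R included 1643 of the 6940 gene-end regions. That scaling moves all levels of a library by the same constant, and the median K303R shift over all regions went from 0.003 to 0.66. The SD of the shift over the 9690 was 0.75 in Y537S, 0.40 in K303R and 0.56 in WT. The lowest level among the 9690 was 0.156 in Y537S untreated, 0.50 in K303R untreated and 0.444 in WT untreated. With E2 alone it was 0.143, 0.31 and 0.25 in the same order. The part of these unequal floors in the width of the shift was not tested. Over single pairs of libraries, 19.9 and 20.7% of the regions differed over 2-fold with Dox in Y537S (without and with E2), 7.04 and 5.07% in K303R, and 10.4 and 15.1% in WT. Leaving out 1 library at a time gave 1050 to 2411 calls in Y537S, with 1375, 1050, 1145 and 1354 without its untreated, E2, Dox and Dox+E2 library. It gave 323 to 1028 in WT, with 429, 473 and 323 without WT untreated, E2 and Dox+E2. In K303R it gave 1 to 33, with 4, 3 and 1 without its untreated, Dox and Dox+E2 library and 19, 24, 32 and 33 without WT untreated, E2, Dox and Dox+E2.

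Most regions called in Y537S had a shift of the same sign in the other forms. Of the 1506 falls in Y537S, 76.9% had a negative shift in K303R and 92.1% in WT, against 58.3 and 56.99% of all 9690. Of the 753 rises in Y537S, 66.7% had a positive shift in K303R and 82.5% in WT, against 41.7 and 42.6%. Of the 6 falls in K303R, 2 had a negative shift in Y537S (33.3%, median shift 0.28) and 5 in WT, and the 5 rises in K303R had a positive shift in both. The forms share no library in these shifts. Across the 9690 the Spearman correlation of the shift was 0.55 between Y537S and WT, 0.33 between K303R and WT, and 0.24 between Y537S and K303R, against 0.28, 0.19 and 0.13 in gene-end regions. These describe regions, which are not independent replicates and share their peak calling floor.

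**Figure D5:**
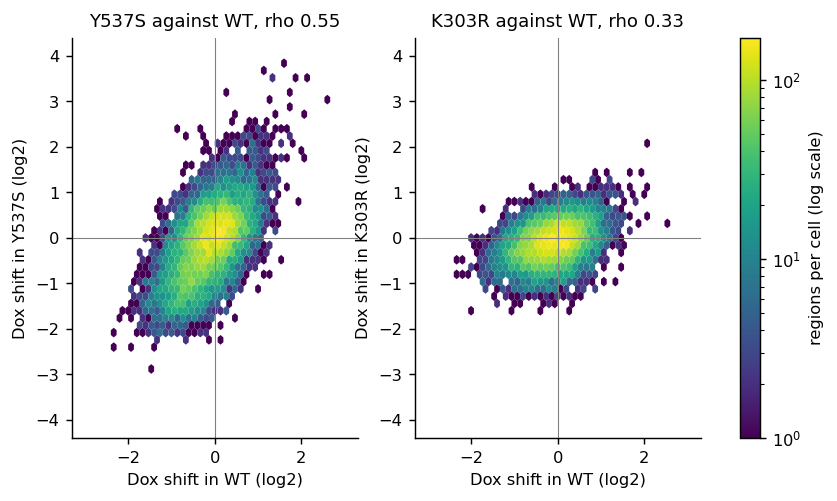
Dox shift (log2) of the 9690 distal always-open regions in Y537S (left) and K303R (right) against WT, as hexagon density with a logarithmic colour scale. The cloud reaches further up and down for Y537S (Spearman rho 0.55) than for K303R (rho 0.33).

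The difference of the Dox shift between forms was tested directly. Between Y537S and K303R it passed the threshold in 469 regions (210 higher in Y537S, 259 lower; backgrounds 1.38 and 1.64%), between Y537S and WT in 33 (25 higher, 8 lower; backgrounds 0.15 and 0.0481%), and between K303R and WT in 6 (4 higher, 2 lower; backgrounds 0.0241 and 0.012%). With the whole-list median as scaling, 26 of the 9690 were higher and 2413 lower in Y537S than in K303R, beside 29 and 3268 over all 16630. For Y537S against WT 5 were higher and 1 lower (5 and 1 over all). For K303R against WT 41 were higher and 0 lower (43 and 0 over all). With quantile normalization 35 were higher and 33 lower in Y537S than in K303R, 1 was higher in Y537S than in WT, and 3 were higher in K303R than in WT, with none lower in the last pair of comparisons. The region inside POLE2, a DNA polymerase epsilon subunit gene (chromosome 14, 49676323 to 49677293), had 1.20 and 1.36 in Y537S Dox+E2 and Dox, against 0.229 and 0.344 with E2 and untreated, while in WT it had 0.643 and 0.389, against 0.95 and 0.667. The difference of the shifts was 2.86 (Y537S minus WT). The region inside ABCC11, a transporter gene of apocrine secretion (chromosome 16, 48234610 to 48236598), went the other way, with 0.760 and 0.280 in Y537S Dox+E2 and Dox, against 1.49 and 1.72, and with 1.07 and 1.83 in WT, against 1.0 and 1.0, a difference of -2.28.

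Further regions of the largest differences from WT lay inside TRAPPC9 (3.22) and MAPK15 (2.98), with higher shifts in Y537S, and inside CPAMD8 (-2.45) and GRHL2, a gene of an epithelial transcription factor (-2.19), with lower ones. For K303R, regions near TMEM62 (2.41), CDH5, the VE-cadherin gene (1.95), and TUSC1 (1.65) had higher shifts than in WT. At TUSC1 (chromosome 9, 25551434 to 25552270) the level was 2.83 and 2.88 in K303R Dox+E2 and Dox, against 3.31 and 2.58 with E2 and untreated. In WT it was 1.21 and 1.22, against 3.85 and 4.00, so that the WT libraries separated and the K303R libraries did not. Regions near SLC2A6, a glucose transporter gene (-2.24), and the one 402 kb from PROS1 (-1.80) had lower shifts in K303R. The last rests on the level of 51.8 in K303R untreated, against 18.2 with E2. These counts moved with single libraries. Leaving one out gave 3 to 152 regions for Y537S minus WT, with 5, 70, 3 and 152 without WT untreated, E2, Dox and Dox+E2 and 9, 10, 4 and 8 without the same in Y537S.

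For K303R minus WT the counts were 36 and 1 without WT Dox and Dox+E2, 2, 2, 3 and 3 without Y537S untreated, E2, Dox and Dox+E2, and 3, 2 and 1 without K303R untreated, Dox and Dox+E2. For Y537S minus K303R they were 160, 107, 90 and 223 without Y537S untreated, E2, Dox and Dox+E2, and 68, 104 and 266 without K303R untreated, Dox and Dox+E2. Without Dox, 47 of the 9690 were higher and 245 lower in Y537S than in WT (backgrounds 0.517 and 1.58%), and 4 higher and 1 lower in K303R than in WT (0.0241 and 0.00601%). With Dox, 304 were higher and 489 lower in Y537S (2.23 and 3.35%), and 194 higher and 43 lower in K303R (1.21 and 0.439%). With the whole-list median as scaling, 3186 of the 9690 were higher and 41 lower in Y537S than in WT without Dox. Over all 16630 regions the counts were 6283 and 42, and the 6283 included 3097 of the 6940 gene-end regions. The median difference over all regions went from 0.02 to 0.76 with this scaling, which moves all levels of a library by the same constant. With Dox 1528 of the 9690 were higher and 41 lower, beside 2207 and 42 over all. In K303R none passed without Dox. With Dox 1079 of the 9690 were higher and 1 lower in K303R than in WT, beside 1195 and 1 over all. Line, form and run cannot be told apart in the Y537S values, nor run and form in the K303R values with Dox.

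Averaged over the ER forms, estradiol moved no region past the threshold. These fits held no form by Dox term, so differences of the Dox shift between forms counted as spread. An E2 shift confined to a single form, such as WT with Dox, was not tested. By limma 0 of the 9690 passed for E2 (background 0%), with 350 at an unadjusted p under 0.05 (3.61%) and a smallest adjusted p of 0.9996. With Dox present 0 passed for E2 (background 0%), with 420 at an unadjusted p under 0.05, and 0 passed for the interaction of E2 with Dox (background 0%), with 376. The middle 90% of the E2 shifts lay between -0.36 and 0.27 on the log2 scale, and the median SE was 0.20. Over single pairs, 1.19 and 1.65% of the regions differed over 2-fold with E2 in Y537S (without and with Dox), 3.74 and 3.69% in K303R, and 4.07 and 5.92% in WT.

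In WT, the difference that E2 made beside Dox had the sign of the Y537S Dox shift in a larger share of regions than the difference that E2 made without Dox. Of the 1506 Y537S falls, 72.7% had a negative difference between WT Dox+E2 and WT Dox (median -0.34), against 49.2% between WT E2 and WT untreated (median 0). Over all 9690 the shares with a negative difference were 50.97 and 55.8%. Of the 753 Y537S rises, 61.8% had a positive difference with Dox in WT and 38.1% without, against 47.5 and 43.4% of all. In K303R the same shares for the Y537S falls were 62.0 and 54.4%, against 53.0 and 59.5% of all. Across the 9690, the Spearman correlation of the E2 difference with the Y537S Dox shift was 0.29 with Dox and -0.07 without in WT, and 0.12 and -0.07 in K303R; in gene-end regions the WT value with Dox was 0.06. Each of these differences rests on a single pair of libraries, and none has a test of its own.

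Levels were compared between libraries over the same regions. The Pearson correlation of levels over the 9690 regions was 0.71 to 0.89 with Dox and 0.71 to 0.87 without for libraries of 1 form that differed in E2 alone. It was 0.44 to 0.70 for libraries of 1 form that differed in Dox. Between forms it was 0.42 to 0.73 where both had Dox and 0.62 to 0.72 where neither had, ranges that overlapped those of 1 form: WT Dox+E2 had 0.73 with Y537S Dox+E2 and 0.71 with WT Dox. In gene-end regions, libraries of 1 form that differed in Dox reached 0.70 to 0.82. These correlations are across regions of shared libraries and move with depth, so they are given as a description.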

How the data were processed

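ATAC-seq was done on 12 MDA-MB-453 libraries, 1 per ER form and treatment, with 75 bp paired reads, per the labels' protocols. The tools named in the submitters' processing notes are Bowtie2, Picard, SAMtools, FastQC and MACS2, with hg38. Versions, settings and whether reads were moved to the transposase's insertion point: not given in the sources used here. The authors deposited 1 peak list per library, with a score, a fold enrichment (ratio), a −log10 p and a −log10 q per summit. The deposited score holds 10 times the −log10 q, dropped to a whole number, and the fold is a whole multiple of 1 step per library, which returns whole pileups (largest distance from a whole number 0.000709) and a background pileup of 0.143 to 0.442. That background stands for depth, since read totals are not used here, and 39522 to 133963 summits were listed per library. Shares carry exact 95% intervals, which cover counting error only.

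Levels closer than 0.001 (log2) were counted as equal. Levels, on the log2 scale, were fitted with limma 3.58.1 (R 4.3.3, trend in the variance) over all 16630 regions open in all libraries, with Benjamini-Hochberg adjustment over all of them. The terms were form, Dox and E2, with a Dox by E2 or a form by Dox interaction for those results. Single values per library were tested by exact permutation within forms (Python 3.11.15, scipy 1.17.1). The fit was tested on simulated data. Gene spans, without strand or exons, and promoter windows came from RefSeq GRCh38.p14. No genome was used here, so sequence around the other summits was not read.

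Printed promoter windows were chosen with chromosome 8 left out. Regions are named by the gene that holds the summit or the nearest protein-coding gene. Named regions are the 10 of highest level, the 5 steadiest above the median level, the 10 largest rises and falls with Dox that pass and move one way in all forms, the 3 largest passing differences between forms each way, the strongest near 16 genes, and those at the thresholds. One gene and a list tied to it are not reported here. The regions, lists and tests were chosen with earlier results of these data known. Alternatives covered scaling, summit choice, recovered pileups, level, distance, −log10 q, array weights, and each library or form left out. Those added after seeing the data were the mean as scaling, leaving out regions at non-coding gene ends, and the distance ratio.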

Additional observations from a re-analysis of the deposited data

Results flagged for a closer look

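The Dox shift differed between ER forms, by the direct test of that difference in limma, in 33 distal always-open regions for Y537S minus WT, 6 for K303R minus WT and 469 for Y537S minus K303R. For Y537S minus WT the regions with the largest differences lay inside TRAPPC9 (3.22 on the log2 scale), MAPK15 (2.98), POLE2 (2.86), CPAMD8 (-2.45), ABCC11 (-2.28) and GRHL2 (-2.19). For K303R minus WT they lay near TMEM62 (2.41), CDH5 (1.95), TUSC1 (1.65), SLC2A6 (-2.24) and PROS1 (-1.80). Both WT libraries with Dox came from a run of their own, and the part of the run in these differences was not tested.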

How the results depend on the processing

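For E2, E2 with Dox and their interaction, each averaged over the forms fitted, no region passed under any alternative run. This included each library left out. E2 within a single form was not tested. With the whole-list median as scaling, rises and falls with Dox numbered 323 and 196, beside 387 and 202 over all 16630 regions. Calls numbered 232 in WT, 1313 in K303R, 6 for Y537S minus WT, 41 for K303R minus WT and 2439 for Y537S minus K303R. This scaling moves all levels of a library by the same constant. The median Dox shift over all 16630 regions went from 0.003 to 0.66 in K303R. Why the constants differ between libraries was not tested. With quantile normalization there were 1406 calls in Y537S, 18 in K303R, and 1, 3 and 68 for these differences in the same order. With array weights there were 557 in WT, 1 for K303R minus WT and 816 for Y537S minus K303R. Regions at or above the median level gave 427 rises, 702 falls, 1049 calls in Y537S, 3 for Y537S minus WT, 223 for Y537S minus K303R and 16 in K303R. A −log10 q of at least 5 in all libraries gave 388 rises, 2 calls in K303R, 19 for Y537S minus WT and 2 for K303R minus WT. The summit nearest to the strongest gave 21 for Y537S minus WT. With fewer libraries, there were 288 rises and 641 falls without WT and 157 and 426 without Y537S. Dox without E2, from a fit of all 12 libraries with a Dox by E2 term, gave 107 and 253. The causes were not tested.

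Leaving out 1 library gave 416 to 777 rises, 959 to 1569 falls, 323 to 1028 calls in WT, 1050 to 2411 in Y537S and 1 to 33 in K303R. It gave 3 to 152 for Y537S minus WT, 1 to 36 for K303R minus WT and 68 to 660 for Y537S minus K303R. The ratio to gene-end regions differed with Dox by -0.26 to -0.20, and the distance ratio by -0.25 to -0.19; with E2 the ratio to gene-end regions differed by -0.11 to 0.03. Without WT, Y537S and K303R in turn the first was -0.17, -0.22 and -0.30 (exact permutation p = 0.0556, the smallest possible), and the second -0.19, -0.16 and -0.31 (exact permutation p = 0.167, 0.167 and 0.0556).

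The 20 largest rises and falls kept their call in 462 of the 463 refits that held them. The 11 named differences between forms kept it in 148 of 221. Runs whose filter dropped a region are not counted, with MAPK15 as the exception. Its region lies 2.34 kb from a gene end and was counted in the run with a 2.5 kb limit. That run reused the main fit, so its calls were fixed in advance, among them 10 rises and 10 falls. All these regions were picked by their calls in the same libraries, so a kept call is not independent support. With 1 library per form and treatment there was no replicate number to pair by. The shifts over single pairs matched libraries with and without Dox on form and E2. Form and E2 were terms of the fits of all forms. Pileups of 3 to 5 at the weakest listed peaks set a floor: a level cannot fall below about 0.444 in WT untreated or 0.50 in K303R untreated.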
